A study of Mus musculus with 4 samples.

Results

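Translation initiation and elongation factors bring the ribosome to the start codon of an mRNA and then move it along the coding sequence. They were taken here as the genes whose mouse symbol begins with Eif or Eef and a digit, without pseudogene rows, without the Eif2ak kinases and without genes on chromosomes X and Y. This rule left 60 of the 50600 genes in the deposited tables, from 75 symbols that match the name pattern. The 15 others were 7 pseudogene rows, 4 Eif2ak kinases and 4 genes on X or Y. RNA of primary regulatory T cells of the mouse strain C57BL/6NJ was sequenced in 4 libraries, replicates 1 to 4, which form a single group. Regulatory T cells are the CD4+ lymphocytes that restrain immune responses. All libraries share that cell type and strain, and no genotype, allele or agent is named. The labels give age and stage as unknown and sex as not collected, tie all 4 biosamples to 1 donor record, and link a procedure for differentiating CD4+ T cells. The headers of the count tables carry the words activated and 48h for every library, so a note of activation is shared by all 4. No control or second condition was set against these cells, and whether the biosamples came from separate animals or cultures is not stated, beyond what Xist and a Y-linked gene show below, so p-values measure only the spread between these libraries, part of which may be technical.

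Library totals lay between 43821767 and 73819468 counts. The markers of the labelled cell type, Foxp3, Il2ra, Ctla4, Ikzf4, Tnfrsf18 and Tnfrsf4, were all expressed, with a summed level of 4075 to 4126 TPM over the libraries. Of 10 markers of B cells, myeloid cells, CD8 T cells, NK cells and erythroid cells, 0 reached 1 TPM, and their summed level was 0.482 to 0.843 TPM. Lyz2, S100a8, Hba-a1 and Ncr1 had 0 counts in every library. The libraries differed in Xist, which stood at 172, 145, 0.255 and 0.367 TPM in replicates 1 to 4, and in the Y-linked Ddx3y, at 0.152, 0.0781, 45.1 and 45.0 TPM. Replicates 1 and 2 thus carry the pattern of female cells and replicates 3 and 4 that of male cells, so the 4 biosamples did not all come from the same animal although they share 1 donor record. Each comparison of a library with the other 3 mixes both patterns, and their part in the results was not tested. TPM is the count divided by the summed exon length of the gene and scaled to the same sum in every library. It is the scale for every level below, and values in a row are in the order of replicates 1 to 4 unless said otherwise, with ± for the SD of the 4 libraries.

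Initiation begins when eIF2 carries the initiator tRNA to the small ribosomal subunit, helped by eIF1, eIF1A, eIF3 and eIF5. The cap at the 5′ end of the mRNA is bound by eIF4E, which the scaffold eIF4G joins to the RNA helicase eIF4A. eIF4E-binding proteins compete with eIF4G for eIF4E until mTOR complex 1 phosphorylates them. In elongation eEF1A delivers aminoacyl-tRNA, the eEF1B subunits recharge eEF1A with GTP, and eEF2 translocates the ribosome. T cells increase protein synthesis when they are activated. Many mRNAs of the translation machinery start with a C followed by a run of pyrimidines, through which mTOR and Larp1 control their translation.

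Start sites were read because this pyrimidine run is known for the group. RefSeq promoters on GRCm38.p6, the mm10 assembly, were matched to 44 of the 60 genes. Each promoter runs from 250 bases before a start to 50 bases after it, with 58 starts for the 44 genes. A run was counted where a C within 2 bases of the start was followed directly by at least 4 pyrimidines, on the gene's strand. The genes that meet this rule were Eef1a1, Eif1ad, Eif2b5, Eif3b, Eif3f, Eif3l and Eif4g1. Their windows run from 10 bases before the start to the 19th base after it, on chr9:78481705-78481734 (minus), chr19:5366803-5366832 (plus), chr16:20498807-20498836 (plus), chr5:140419295-140419324 (plus), chr7:108934405-108934434 (plus), chr15:79075213-79075242 (plus) and chr16:20672717-20672746 (plus), in the order of the lines. Capitals mark the C and the pyrimidines after it.
Eef1a1: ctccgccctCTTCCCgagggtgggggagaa
Eif1ad: gctttcgatggCTTTTgtttctccagcggc
Eif2b5: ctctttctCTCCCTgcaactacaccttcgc
Eif3b: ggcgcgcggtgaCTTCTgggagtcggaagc
Eif3f: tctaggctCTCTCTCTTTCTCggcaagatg
Eif3l: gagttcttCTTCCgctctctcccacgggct
Eif4g1: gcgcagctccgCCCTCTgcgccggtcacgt
Eif3f has the longest of these runs, with 13 bases from its C on. The 7 genes are 15.9% of the 44, against 10.6% of the 27025 genes in the promoter table, 12.2% of the genes expressed in all libraries and 36.1% of the cytosolic ribosomal protein genes. With another rule, a C within 20 bases followed by at least 6 pyrimidines, the share was 34.1% of the factors, 24.0% of all genes, 24.7% of expressed genes and 59.0% of ribosomal protein genes. Of the 7 genes 5 also met that rule, and Eif3b and Eif4g1 did not. The median level was 662 TPM over the 7 genes with the first kind of run and 154 TPM over the 37 without it, but 203 TPM over the 15 genes that met the other rule and 184 TPM over the 29 that did not, so no link with level held under both. A match describes letters near an annotated start and does not show which start these cells used.

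The E-box CACGTG, known as a site for Myc and Max and for related factors, was searched in the same promoters. It reads the same on both strands. It occurred in 12 of the 44 genes, or 27.3%, against 8.09% of all genes in the promoter table, 12.3% of expressed genes and 9.84% of cytosolic ribosomal protein genes. The 44 genes had 1.32 annotated starts each on average and the expressed genes 1.27. The 12 genes were Eef2, Eef2k, Eif1b, Eif3a, Eif3f, Eif3k, Eif4a1, Eif4e, Eif4g1, Eif4h, Eif5a and Eif5a2. Their median level was 428 TPM, against 172 TPM for the 32 genes without the motif, and their range of 16.4 to 7436 TPM spans most of the group. The windows shown are those of the elongation factor eEF2, of the eIF4F parts eIF4A1, eIF4E and eIF4G1, and of eIF5A, with the motif in capitals. They lie at chr10:81176576-81176605 (plus), chr11:69672595-69672624 (minus), chr3:138527192-138527221 (plus), chr16:20672661-20672690 (plus) and chr11:69921443-69921472 (minus).
Eef2: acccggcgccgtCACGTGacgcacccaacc
Eif4a1: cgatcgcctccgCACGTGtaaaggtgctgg
Eif4e: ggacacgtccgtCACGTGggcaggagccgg
Eif4g1: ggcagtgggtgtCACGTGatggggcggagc
Eif5a: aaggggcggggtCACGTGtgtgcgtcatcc
In these windows the motif begins 43 bases before the start in Eef2, 189 in Eif4a1, 64 in Eif4e, 54 in Eif4g1 and 74 in Eif5a. Eif4e and Eif5a have other annotated starts, some without the motif. The Eif5a motif shown also lies 185 bases before another of its starts. Further motifs lie 228 bases before the same Eif4e start, 15 after the Eif4g1 start and 178 before another Eif5a start. Eif4g1 and Eif3f are the genes with both an E-box and a pyrimidine run by the first rule. By the other pyrimidine rule the genes with both are Eef2, Eif3f, Eif3k and Eif4e. The ETS core CCGGAAG, searched on both strands, occurred in 15 of the 44 genes, or 34.1%, beside 9.93% of all genes, 22.8% of expressed genes and 39.3% of ribosomal protein genes. The letters of this core, on either strand, cannot overlap those of CACGTG. The motifs were not tested against these shares, and the absence of a match says only that the letters are not in the window.

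Of the 60 genes, 56 were expressed, that is, at 1 TPM or more in all 4 libraries. This is 93.3% of the group, where 22.9% of all 50600 genes were expressed. The median level over the 60 genes was 189 TPM, with a middle range of 66.8 to 595 TPM. The median over the 11593 expressed genes was 28.6 TPM. Cytosolic ribosomal proteins, 81 autosomal coding genes, had a median of 874 TPM, and the 78 genes of mitochondrial ribosomal proteins one of 77.9 TPM. Above 100 TPM in every library stood 40 of the factors, and above 1000 TPM stood 5, namely Eef1a1, Eef2, Eif5a, Eef1g and Eef1b2. Together the 60 genes took 3.73 ± 0.056% of TPM and 3.41 ± 0.044% of counts. The elongation factors Eef1a1 and Eef2 made up 46.7 ± 0.55% of the group's TPM, and the 10 highest genes 71.4 ± 0.24%.

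**Figure D1:**
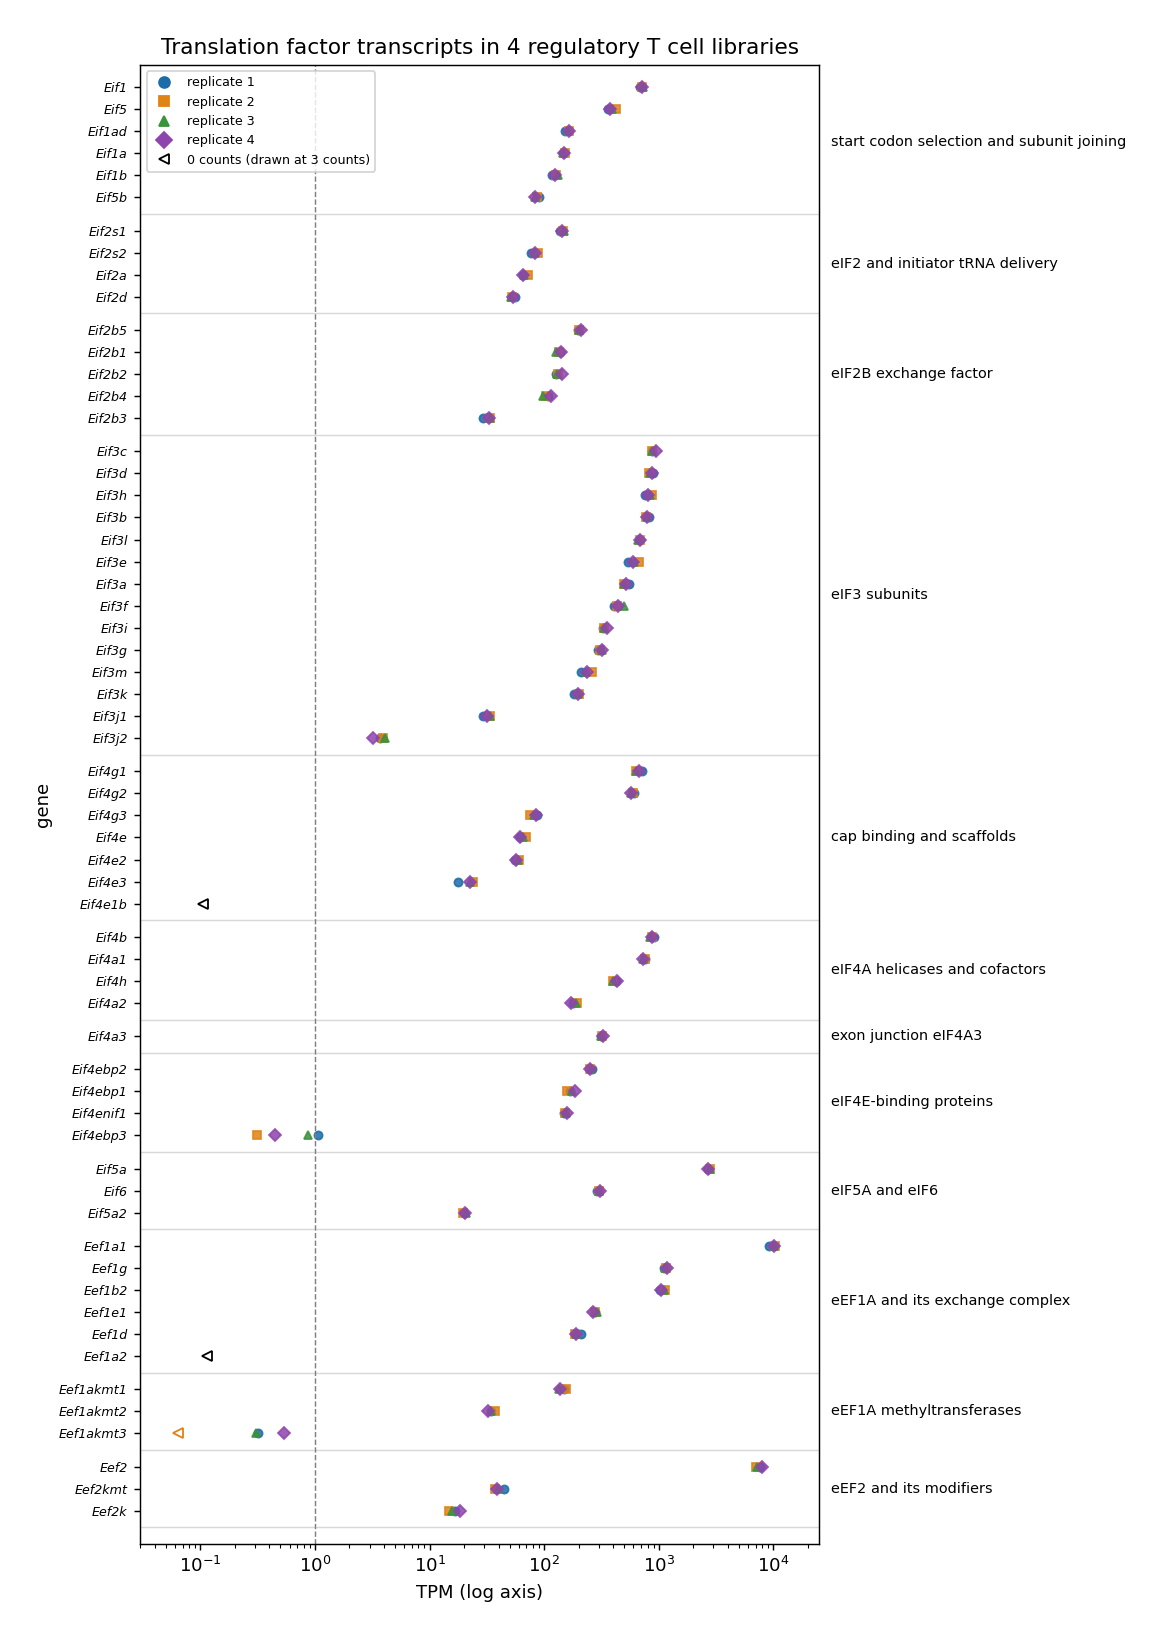
Level of each of the 60 genes in TPM on a log axis, with 1 point per library and the genes grouped by role. The dashed line is 1 TPM, and open triangles mark libraries with 0 counts, drawn at the TPM of 3 counts. Eef1a1 and Eef2 stand apart at the right, at means of 9956 and 7436 TPM, while Eef1a2 and Eif4e1b had 0 counts throughout.

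Elongation factor transcripts were the highest of the group. Eef1a1, which delivers aminoacyl-tRNA, stood at 9205, 10391, 10190.4 and 10039 TPM, a mean of 9956 ± 521. Replicate 1 was the lowest, and the other libraries lay close together. The gene lies on mm10 chromosome 9 from 78478449 to 78489151 on the minus strand. In its longest transcript 60.6% of the 50-base windows also occur in transcripts of 21 other genes. The counting did not ask for fragments with several alignments, so its level may be low by an amount the counts do not give.

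Its paralogue Eef1a2, the eEF1A form of muscle and neurons, had 0 counts in all libraries. At 3 counts it would have stood at no more than 0.114 TPM, a limit that covers counting error only. The eEF1A transcripts were thus those of Eef1a1, at least 80760-fold above that floor in the library where the bound is lowest.

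The exchange subunits stood well below eEF1A itself. Eef1g, the structural gamma subunit, had 1121, 1167, 1134 and 1174 TPM, and Eef1b2, a catalytic subunit, had 1026, 1141, 1110 and 1038 TPM. The SD between libraries was 2.20% of the mean for Eef1g and 5.18% for Eef1b2. Eef1g was the higher in every library, by 0.09 ± 0.073 on the log2 scale. Of the 50-base windows of Eef1g 64.3% also occur in transcripts of other genes. Eef1d, the other catalytic subunit, was lower at 210, 187, 191 and 191 TPM, with replicate 1 above the rest. Eef1b2 exceeded Eef1d by 5.54-fold (4.89 to 6.09 over the libraries), or 3.50-fold with the longest annotated transcript as length, by which Eef1d had 318 TPM. Eef1a1 stood 4.11 ± 0.14 times above the sum of Eef1b2, Eef1d and Eef1g. Eef1e1, a scaffold protein of the multi-tRNA synthetase complex named for its likeness to these subunits, had 278 ± 9.94 TPM. By its longest transcript it had 88.8 TPM. That transcript has 2553 bases, where only 1032 exon bases were counted, so the lower value can be too low.

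Eef2, the translocase, was at 7681, 6993, 7132 and 7939 TPM, with replicates 1 and 4 above replicates 2 and 3. It lies on mm10 chromosome 10 from 81176631 to 81182498 on the plus strand. Eef1a1 was 1.34-fold above Eef2, and the ratio ran from 1.20 in replicate 1 to 1.49 in replicate 2. Eef2k, the calmodulin-dependent kinase that phosphorylates and inhibits eEF2, was low at 16.8, 14.9, 15.6 and 18.3 TPM. Its libraries stood in the same order as those of Eef2, with replicates 4 and 1 the highest, and Eef2 stood 455-fold above it (435 to 469). Eef2kmt, which methylates a lysine of eEF2, was at 40.0 ± 3.43 TPM and highest in replicate 1.

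Among the methyltransferases of eEF1A lysines, Eef1akmt1 stood at 144 ± 9.50 TPM and Eef1akmt2 at 34.7 ± 2.04 TPM. Eef1akmt3 was near the limit of detection at 0.320, 0, 0.306 and 0.537 TPM, which are 11, 0, 18 and 22 counts. No library of it reached 1 TPM, and it was not tested.

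The genes of start codon selection and subunit joining were all expressed, with a median of 154 TPM over 6 genes. Eif1, which keeps the scanning ribosome open until a start codon is met, led them at 690 TPM in replicate 1 and 714, 724 and 721 TPM in the others. Its paralogue Eif1b stood at 116, 128, 133 and 125 TPM. The Eif1 level was 5.69-fold that of Eif1b (5.45 to 5.93), although 31.6% of the 50-base windows of Eif1 also occur in transcripts of 18 other genes, so fragments of Eif1 may be missing. Eif5, the GTPase activator of eIF2, had 388 ± 24.8 TPM and Eif5b, the GTPase that joins the subunits, 85.8 ± 3.10 TPM. Eif1a stood at 149 ± 2.74 TPM and Eif1ad, a protein with an eIF1A-like domain, at 160 ± 5.70 TPM.

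eIF2 and its exchange factor eIF2B were at intermediate levels. Eif2s1, the alpha subunit whose phosphorylation slows initiation, had 137, 146, 148 and 142 TPM, while Eif2s2, the beta subunit, had 77.2, 88.9, 83.4 and 82.9 TPM. Replicate 1 was the lowest for both. Eif2s1 was 1.72-fold above its partner (1.64 to 1.78). The gamma subunit is encoded on X and Y and is outside the rule. The eIF2B genes Eif2b1 to Eif2b5 summed to 609 ± 21.8 TPM, with Eif2b5, the catalytic epsilon subunit, highest at 203 ± 5.83 TPM and Eif2b3, the gamma subunit, lowest at 32.3 ± 2.15 TPM. Eif2a and Eif2d, which can bring initiator tRNA to the ribosome without eIF2, stood at 67.6 ± 3.71 and 53.2 ± 1.86 TPM, and Eif2d at 89.5 TPM by its longest transcript.

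eIF3, the large complex that holds the initiation machinery on the small subunit, was the initiation group with the largest sum, at 6724 ± 99.0 TPM over 14 genes. Its 12 core subunits, present once per complex, had a median of 560 TPM, and the highest exceeded the lowest by 4.63 ± 0.27-fold within a library. Eif3c, a subunit of the core octamer, was the highest at 879, 878, 872 and 945 TPM, with replicate 4 above the rest. The cap-binding subunit Eif3d had 899, 819, 840 and 879 TPM. Eif3h had 757, 872, 841 and 807 TPM, and Eif3b, a scaffold of the complex, had 827, 780, 792 and 792 TPM. These 4 genes overlapped in level, and their order was not the same in every library. Of the 50-base windows of Eif3d 42.1% also occur in transcripts of 1 other gene.

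Lower in the core stood Eif3l at 676 ± 14.9 TPM, Eif3a, the largest subunit, at 517 ± 25.9, Eif3i at 338 TPM (329 to 356 over the libraries), Eif3g at 311 ± 11.4 TPM, Eif3m at 236 ± 19.7 and Eif3k, the lowest, at 194 ± 8.90 TPM. With the longest annotated transcript as length, Eif3d fell to 509, Eif3l to 431 and Eif3e from 604 to 178 TPM, below Eif3k at 232. For Eif3e that transcript has 4123 bases, where only 1541 exon bases were counted. In Eif3d and Eif3l it is also longer than the counted exons. Fragments on uncounted bases are missing, so this length can give too low a level and does not settle which core subunit is lowest. Part of the fall of Eif3d, Eif3l and Eif3e is a rescaling of the TPM sum over all genes. By it Eif4ebp2, with the same length by both, went from 254 to 201 TPM. Eif3e and Eif3f varied most among the core subunits. Eif3e had 536, 676, 605 and 600 TPM, low in replicate 1 and high in replicate 2, and Eif3f had 406, 433, 496 and 437 TPM, low in replicate 1 and high in replicate 3. The loosely bound subunit eIF3j is encoded by Eif3j1 and Eif3j2. Eif3j1 had 29.1, 33.4, 33.9 and 31.9 TPM and Eif3j2 had 3.73, 3.93, 4.10 and 3.21 TPM. The ratio was 8.60-fold (7.81 to 9.94), but 91.8% of the 50-base windows of Eif3j2 and 54.8% of those of Eif3j1 occur in transcripts of other genes, so fragments may be missing from both.

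In the cap-binding complex the mean level of Eif4e, the cap-binding protein, was below that of each eIF4G and eIF4A gene. It had 61.5, 69.6, 64.7 and 61.5 TPM, with replicate 2 the highest. Eif4e2, a related cap-binding protein that takes part in mRNA repression, had 55.5, 60.2, 58.8 and 57.3 TPM. The difference between them was small, 0.15 ± 0.045 on the log2 scale in favour of Eif4e, and it turned to -0.69 when the longest annotated transcript served as gene length, by which Eif4e2 had 98.9 TPM. Which of the pair is the higher thus depends on the length used.

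The third cap-binding gene, Eif4e3, stood at 17.6, 24.1, 22.7 and 22.4 TPM, with replicate 1 below the rest. Eif4e exceeded it by 2.98-fold (2.74 to 3.50). On the same strand 14.8% of the Eif4e3 exon bases also belong to another gene, and fragments there could not be assigned. Eif4e1b, the eIF4E form known from oocytes, had 0 counts in every library, and 3 counts would be no more than 0.105 TPM.

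Of the scaffolds, Eif4g1 and Eif4g2 stood well above Eif4e. Eif4g1 had 720 TPM in replicate 1 and 629, 633 and 668 TPM in the others, and Eif4g2, a scaffold without the eIF4E site, had 611, 601, 578 and 578 TPM. Eif4g1 was the higher by 1.12-fold (1.05 to 1.18), in every library. Eif4g3 had 86.2, 74.9, 81.2 and 84.9 TPM, 8.10-fold below Eif4g1 (7.80 to 8.40).

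The helicase Eif4a1 was nearly constant at 754, 757, 733 and 729 TPM. Eif4a2, its close paralogue, had 179, 194, 189 and 171 TPM, so Eif4a1 was 4.06-fold above it (3.87 to 4.25). By its longest transcript Eif4a2 had 286 TPM, and 33.3% of the 50-base windows of Eif4a1 occur in transcripts of 11 other genes. Eif4a3, a helicase of the exon junction complex, had 315, 320, 313 and 325 TPM, 2.34-fold below Eif4a1 (2.24 to 2.40). Relative to the summed Eif4g1 and Eif4g3, the scaffolds that carry eIF4E, Eif4a1 stood at 1.00 ± 0.062. Of the cofactors of the helicase, Eif4b had 916, 866, 843 and 877 TPM, highest in replicate 1, and Eif4h 413 ± 15.7 TPM, or 665 TPM by its longest transcript.

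The eIF4E-binding proteins were more abundant as transcripts than eIF4E. Eif4ebp2 had 261, 250.3, 256 and 250.5 TPM, and Eif4ebp1 had 169, 159, 177 and 185 TPM. Eif4ebp1 was the lower of the pair in each library, at 0.677 of Eif4ebp2 (0.634 to 0.737). Eif4ebp3 was near the limit at 1.06, 0.312, 0.869 and 0.446 TPM, from 10, 4, 14 and 5 counts, and 67.3% of its exon bases belong to another gene on the same strand as well. Summed, these binding proteins stood 6.67 ± 0.55 times above Eif4e, from 5.89 in replicate 2 to 7.09 in replicate 4. Eif4enif1, the eIF4E transporter that carries eIF4E to the nucleus and to processing bodies, had 154 ± 4.53 TPM. Levels of transcript say nothing of the phosphorylation that governs binding to eIF4E.

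Eif5a, which frees ribosomes stalled at difficult peptide bonds and is the known protein modified with hypusine, was the highest transcript after Eef1a1 and Eef2. It had 2676, 2790.0, 2813 and 2665 TPM, close in all libraries. Eif5a2, its paralogue, had 20.1, 19.6, 20.7 and 20.2 TPM, so Eif5a stood 136-fold higher (132 to 142), or 224-fold with the longest annotated transcript as length. Eif6, which keeps the large subunit from joining too early, had 298 ± 7.42 TPM.

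**Figure D2:**
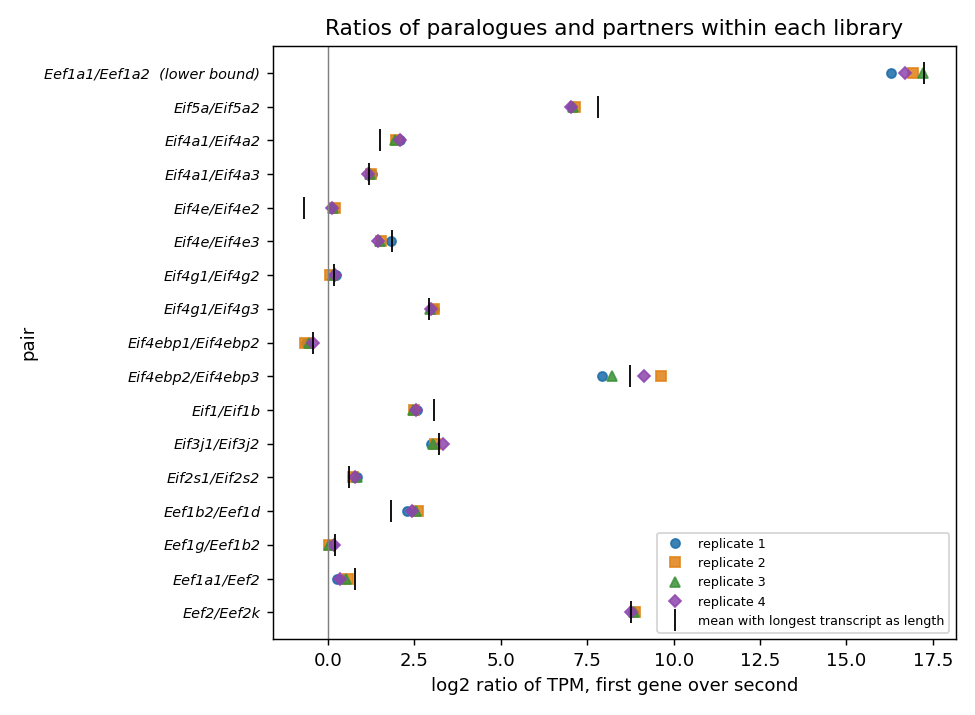
Log2 ratio of TPM within each library for 17 pairs of paralogues or partners, first gene over second, with 1 point per library. The vertical tick is the mean when the longest annotated transcript replaces the summed exon length. Eif4ebp1/Eif4ebp2 lies below 0 in every library, and for Eif4e/Eif4e2 the tick lies at -0.69, on the other side of 0 from its points.

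The 17 pairs compare paralogues or partners within a library. In 16 of them the first gene was higher in 4 of 4 libraries, and in Eif4ebp1 against Eif4ebp2 it was lower in 4 of 4. An exact permutation test over the signs of the 4 libraries, taken on both sides, gave each pair the smallest p the design allows, 2 of 16 sign patterns, also after Benjamini-Hochberg adjustment over the 17. That is above 0.05, so no pair could pass. For the Eef1a1/Eef1a2 pair, the ratio is a bound against 3 counts.

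Each library was set against the other 3 by edgeR's quasi-likelihood test over 12917 genes, 56 of the factors among them, which asks whether a library differs, not a condition. In replicate 1 the test called 0.0697% of all genes (9, of which 6 were higher and 3 lower). Of the factors it called 1, Eef1a1. It was lower in replicate 1 by a log2 difference of -0.16 (SE 0.030, 95% interval -0.22 to -0.095, adjusted p = 0.0314 by edgeR's quasi-likelihood test with Benjamini-Hochberg adjustment). The call was lost with DESeq2 (adjusted p = 0.275), without the filter on low counts (0.298, edgeR), without replicate 2 (0.419, edgeR) and without replicate 3 (0.304, edgeR), and without replicate 4 its adjusted p was 2.74e-07 (edgeR). The log2 difference stayed between -0.17 and -0.14 in every alternative run.

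In replicates 2 and 4 the edgeR test called 0% of all genes and in replicate 3 it called 0.0232%, and 0 of the 56 factors in each of the 3. DESeq2 called 0 of the factors in each of the 4 comparisons. At an unadjusted p under 0.05 edgeR placed 10 factors in replicate 1 (2 higher and 8 lower), 6 in replicate 2 (4 higher and 2 lower), 1 in replicate 3 and 0 in replicate 4. As shares of the 56 these are 17.9%, 10.7%, 1.79% and 0%, against 9.31%, 6.78%, 2.31% and 2.49% of all genes tested. The median log2 difference over the factors was -0.045, 0.018, -0.0011 and 0.011, where that over all genes was -0.0052, -0.0044, -0.0048 and -0.0010.

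Replicate 1 was the lowest library for 26 of the 56 expressed factors and the highest for 12, and the same counts were not made over all genes. The median factor stood there at 98.0% of its mean, and the median expressed gene at 100.1%. Besides Eef1a1, the 7 genes with an unadjusted p under 0.05 that were lower there were Eif3m, Eif4e3, Eif3e, Eif2b3, Eif2s2, Eif3k and Eif3j1, with log2 differences of -0.21, -0.40, -0.23, -0.20, -0.15, -0.14 and -0.19. Higher there were Eif4g1 by 0.16 and Eef2kmt by 0.22. None of these 9 passed adjustment in edgeR's quasi-likelihood test, with adjusted p between 0.323 (Eif3m) and 0.522 (Eef2kmt). By role, 10 of the 14 eIF3 genes, 5 of the 6 start codon genes and 4 of the 5 tested eEF1A complex genes were below 0 in replicate 1. All 3 genes of the eEF2 list, 3 of the 4 of the eIF4A list and 3 of the 6 tested of the cap list were above 0. In the other lists, 3 of 3 eIF5A and eIF6 genes, 3 of 4 eIF2 genes and 3 of 5 eIF2B genes were below 0. So were 2 of 3 tested eIF4E-binding genes, 1 of 2 tested eEF1A methyltransferases, and Eif4a3. Over all 56 factors 20 were above 0, and the lists did not all lie on the same side. The share of all genes below 0 was not counted, and their median was -0.0052. Replicate 1 also had the fewest counts, 43821767. Replicate 4, the next in counts at 52005209, was the lowest library for 8 factors. A link with depth was not tested.

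In replicate 2, Eif3e (0.22), Eif3m (0.19), Eif4e (0.15) and Eif2a (0.15) were on the higher side and Eef2 (-0.12) and Eif4ebp1 (-0.15) on the lower side at an unadjusted p under 0.05, with adjusted p from 0.680 (Eef2) to 0.723 (Eif4ebp1) in edgeR's quasi-likelihood test. Eif3f (0.23, adjusted p = 0.99985 by the same edgeR test) was the single such gene in replicate 3. The 4 comparisons share libraries, so these values are not independent of those of replicate 1. Leaving out replicate 4 raised the calls in replicate 1 from 9 of 12917 genes to 341 of 13167, and among them those of the factors to 5, namely Eef1a1, Eef2, Eif3e, Eif3m and Eif4g1. Leaving out replicate 1 gave 2 calls of 13224 genes in replicate 4, of which Eef2 was 1.

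**Figure D3:**
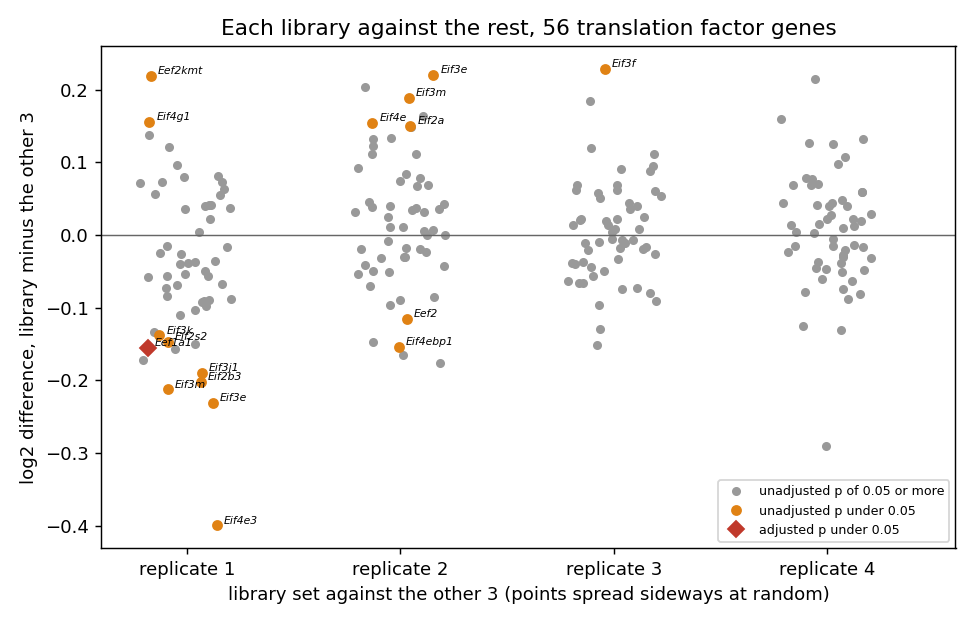
Log2 difference of each library from the other 3 for the 56 tested factors, as edgeR fitted it, with 1 point per gene and sideways scatter for legibility. The red diamond is Eef1a1 in replicate 1, the single call after adjustment, and orange points are genes with an unadjusted p under 0.05. Most points lie within 0.2 of 0, and Eif4e3 in replicate 1 lies lowest at -0.40.

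Over the 4 libraries the coefficient of variation of TPM, the SD as a percentage of the mean, had a median of 4.67% over the 56 expressed factors and of 6.52% over the 11593 expressed genes. Below the all-gene median lay 45 of the 56. The factors are more abundant than most genes. Over the 2283 expressed genes between 85.1 and 619 TPM, the middle range of the factors' levels, the median was 4.54%, and over the 28 factors among them it was 3.78%. The expressed genes with the highest coefficients were Eif4e3 (13.1%), Eif3j2 (10.3%), Eif3e (9.41%), Eef2k (9.06%) and Eif3f (8.58%). For scale, counting error alone would give 3.40%, 8.38%, 0.819%, 2.26% and 0.699% for these genes, which were chosen for their high coefficients. The smallest coefficients were those of Eif4a3 (1.72%), Eif1a (1.84%) and Eif4a1 (1.95%). Eef1a1 and Eef2 had 5.24% and 6.02%. Without replicate 1 the median was 3.30% for the factors and 5.78% for all expressed genes.

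**Figure D4:**
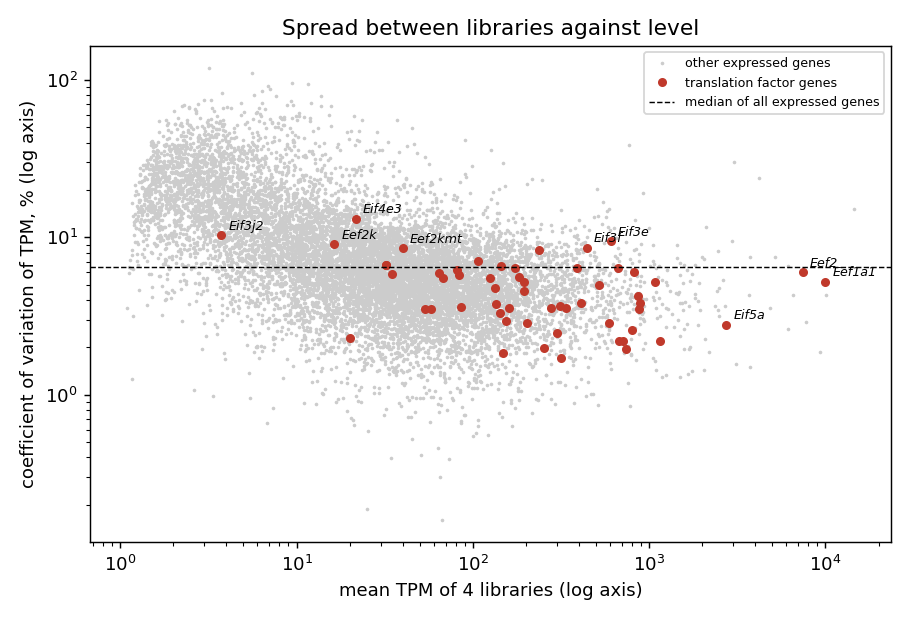
Coefficient of variation of TPM over the 4 libraries against mean TPM, both on log axes, for the 56 expressed factors (red) and the other expressed genes (grey). The dashed line is the median of all expressed genes, 6.52%. The most variable and the 3 most abundant factors are named. Eif4e3, at 13.1%, is the highest of the factors.

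Of the other genes of the translation pathway, 53 symbols in 9 lists, 52 were matched in the tables and all 52 were expressed. The highest were Pabpc1, the poly(A)-binding protein that contacts eIF4G, at 1080.4 ± 17.8 TPM, Mknk2, a kinase of eIF4E, at 670 ± 47.7, Bzw2, a regulator of start codon choice, at 516 ± 10.4, and Etf1, the release factor, at 493 ± 13.3 TPM. Larp1, which binds pyrimidine-run mRNAs, had 373 ± 20.6 TPM. Dhps and Dohh, the enzymes that make hypusine on eIF5A, had 74.5 ± 4.35 and 95.2 ± 6.06 TPM. The 7 genes of eEF2 diphthamide synthesis had a median of 30.8 TPM. Mitochondrial factors, 9 genes, had a median of 20.7 TPM, with Tufm, the mitochondrial counterpart of eEF1A, highest at 185 ± 10.9 TPM. Over these 52 genes the median log2 difference of a library from the other 3, as edgeR fitted it, was 0.0080, -0.0055, -0.0020 and -0.012. Over all genes tested it was -0.0052, -0.0044, -0.0048 and -0.0010.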

How the data were processed

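Gene counts are whole numbers of fragments, made by the authors with featureCounts 1.4.6-p4 from paired, reverse-stranded alignments on mm10 with GENCODE M13 exons, per the file headers. Fragments aligning to several places were not requested and those shared by overlapping genes on the same strand are lost. The deposited length of each gene is its summed exon length, per the file headers. No source used here gives the version of the aligner. The labels call the assay total RNA and link a library protocol named for polyadenylated RNA.

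From the deposited counts and lengths TPM was derived here. Of 50600 identifiers 50376 matched a GENCODE M21 symbol, and the 224 others held at most 0.00963% of a library's counts. A gene was expressed at 1 TPM or more in all 4 libraries, and 0 counts were given a limit of 3 counts. Depth was 43821767, 58696937, 73819468 and 52005209 counts in replicates 1 to 4. Since PCR copies of a fragment are not independent, limits cover counting error only. Each library was set against the other 3 in edgeR 4.0.16 (R 4.3.3) by the quasi-likelihood test, after filterByExpr for 1 group and TMM scaling, at 0.05 after Benjamini-Hochberg adjustment over all genes tested. The fit assumes that the single library varies as the others do. The step was tested on simulated data with larger changes than that of Eef1a1. That test does not bear on a difference as small as the Eef1a1 one. Alternatives were DESeq2 1.42.0, its size factors, no filter, other thresholds and lengths, and leaving out each library. Shared windows are 50-base stretches of the longest GENCODE M21 transcript found in transcripts of other genes. The longest annotated transcripts used as lengths are also those of GENCODE M21, while the counts rest on GENCODE M13 exons. Where such a transcript is longer than the counted exons, the level by that length can be too low. All levels by that length are also rescaled with the TPM sum over all genes. Full values are given for the 10 highest genes, genes called, the genes of the 17 pairs, the 5 most variable expressed genes and those under 1 TPM in any library; other values illustrate roles. The members and lists were chosen with earlier results of these data known, and the motifs, the level range for the spread and the second pyrimidine rule after seeing the data.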

Additional observations from a re-analysis of the deposited data

Results flagged for a closer look

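In a group of 4 libraries a sample was taken as standing apart where its gap to the nearest other sample, as a share of the whole range, exceeded Dixon's 95% critical value. Of 76 values checked, 58 of them levels of single factors, 3 did so, and chance gives about 1 in 20. Eif3c was highest in replicate 4 (945 TPM against 872 to 879), with a gap of 0.904 of its range. Eef1d was highest in replicate 1 (210 TPM against 187 to 191), with a gap of 0.843. Eif1ad was lowest in replicate 1 (151 TPM against 161 to 163), with a gap of 0.834.

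Pseudogene rows left out by the rule carried counts. Eif4a-ps4 had a mean of 34.5 TPM, Eif5al3-ps of 5.54 TPM, Eif3s6-ps1 of 3.12 TPM and Eif3s6-ps2 of 2.48 TPM, above the limit that 0 counts allow.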

How the results depend on the processing

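Of the alternatives, 142 values were taken as unchanged, 9 planned and 1 unplanned as moved, 4 as weaker and 1 as reversed. Of the 142, 101 were pair ratios, which only had to keep their sign, a mild demand for a log2 ratio such as 16.8 for Eef1a1/Eef1a2. Counts had to stay within 1.5-fold. Levels and the eIF3 spread had to move by less than the SD of the libraries, and the median coefficient of variation by less than the SD of its values with a library left out. The Eef1a1 difference had to keep its sign and side of the threshold. The number of factors called in replicate 1 was 1, and it was 0 with no filter and 0 with DESeq2, and ran from 0 to 5 when each library was left out in turn, where the 5, without replicate 4, were among 341 of 13167 genes called. In replicate 4 it ran from 0 to 1, the 1 among 2 of 13224 genes. The median level of the factors was 197 TPM over genes of at least 200 bases outside the mitochondrial genome, against 189. Their median coefficient of variation ran from 3.30% to 4.77% with a library left out. The highest eIF3 core subunit exceeded the lowest by 4.17-fold with the longest transcript as length. The lowest by that length was Eif3e, whose longest transcript exceeds its counted exons. The ratio of Eif4e to Eif4e2 reversed to -0.69 (log2) with the longest transcript as length, the single pair to do so. That length moved the levels of 9 expressed factors and the ratios of 3 pairs by over 1.5 times. Among the 9 are Eif3d, Eif3l, Eif3e and Eef1e1, whose longest transcript exceeds the counted exons. Levels by that length also carry a rescaling of the TPM sum over all genes. Eif4ebp2, with the same length by both, thus moved from 254 to 201 TPM, or 1.27 times. That rescaling drops out of a ratio within a library. The other pyrimidine rule gave 15 genes in place of 7, 5 of them shared. The causes were not tested. Eif4ebp3 and Eef1akmt3 had 22 counts or fewer per library, so their levels are uncertain. Of the exon bases of Eif4ebp3, 67.3% belong to another gene on the same strand as well, and fragments there were lost. No paired analysis was possible because the labels give a single group.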

Other observations

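The gamma subunit of eIF2 lies outside the rule because its genes are on X and Y. In the order of replicates 1 to 4, the X-linked Eif2s3x had 123, 124, 74.7 and 75.3 TPM. The Y-linked Eif2s3y had 0.0761, 0.0836, 48.3 and 57.7 TPM. Their sum was 123, 124, 123 and 133 TPM, with a coefficient of variation of 3.78%, where that of Eif2s3x alone was 28.3%. Replicates 1 and 2, high in Xist, were those high in Eif2s3x, and replicates 3 and 4, high in Ddx3y, were those high in Eif2s3y. Eif1ax, the X-linked form of eIF1A, had 96.8 ± 6.63 TPM. The kinases of eIF2 alpha, also left out by the rule, had 47.9 ± 2.19 TPM for Eif2ak1, 16.2 ± 1.27 for Eif2ak2, 22.4 ± 1.53 for Eif2ak3 and 26.8 ± 0.44 for Eif2ak4. The median over all expressed genes was 28.6 TPM. Ppp1r15b, which brings the phosphatase to eIF2 alpha, had 166 ± 1.06 TPM.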
